A study of Mus musculus with 16 samples.

Results

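The contacts described here join the first listed part of mouse chromosome 1 to a short stretch near 88 Mb on the same chromosome, in promoter-capture Hi-C of embryonic stem cells (ESC) and epiblast-like cells (EpiLC). Members were all listed interactions on chromosome 1 with one end starting before 5 Mb and the other end starting from 85 to under 90 Mb. This rule gave 914 of the 260860 listed interactions. Every listed interaction reached a CHiCAGO score of 5 in at least 1 column, so the members were chosen by position and by these same scores. CHiCAGO scores measure how far the read pairs between 2 restriction fragments exceed the number that distance and technical background predict, and 5 is the usual calling threshold.

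The labels give 16 samples from 4 mouse cell lines at 2 stages, with 2 replicates in each of the 8 groups. DNMT_KO lacks Dnmt1, Dnmt3a and Dnmt3b, the enzymes that write DNA methylation, and DNMT_WT is its parental wild-type line. TET_KO lacks Tet1, Tet2 and Tet3, which oxidise methylated cytosine, and TET_WT is its parental wild-type line. ESC grew in 2i/Lif and were sampled at day 0, and EpiLC were sampled on day 2 of differentiation. The deposited scores come as 1 column per group, so no column has an SD, its depth is unknown, and each knock-out is seen in 1 line only. Contact scores do not measure expression, so the stage labels could not be checked against marker genes. The series asks how turnover of DNA methylation at the exit from pluripotency relates to regulatory elements and their contacts.

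Mouse chromosomes carry the centromere at the end where the base count begins, so the first listed fragments of a chromosome lie on the side of its centromere. Most promoter contacts span short distances, because contact frequency falls steeply with distance along a chromosome. Hjurp encodes the chaperone that deposits the centromeric histone Cenpa. Ugt1a1 encodes the liver enzyme that conjugates bilirubin and belongs to the Ugt1a cluster, whose members have their own first exon and share the later ones. Mroh2a, which the table names Heatr7b1, encodes a protein with HEAT repeats and lies between them.

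At the 88 Mb side all members fell into one stretch of 87.97 kb, from 88211442 to 88299414 (GRCm38), on 16 of its 27 HindIII fragments. Only 3 captured promoters lay in it, those of Ugt1a1 (chr1:88211442-88213533), Heatr7b1 (chr1:88226925-88229010) and Hjurp (chr1:88276241-88278577). They were the bait of 798 members, 268 for Ugt1a1, 144 for Heatr7b1 and 386 for Hjurp. The other 116 members were captured from 12 promoters of the chromosome start. The 250 bases before the RefSeq start of each of the 3 genes are printed because these promoters carry most of the pairing; sequences are from RefSeq on GRCm38.p6, read on the strand of the gene, with CpG dinucleotides in capitals.
Ugt1a1, chr1:88211709-88211958, plus strand: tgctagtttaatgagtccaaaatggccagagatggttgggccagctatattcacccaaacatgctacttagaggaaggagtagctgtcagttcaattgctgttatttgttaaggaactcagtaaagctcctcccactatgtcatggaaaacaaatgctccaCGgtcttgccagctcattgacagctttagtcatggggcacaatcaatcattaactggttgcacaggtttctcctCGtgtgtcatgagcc
Mroh2a, chr1:88226770-88227019, plus strand: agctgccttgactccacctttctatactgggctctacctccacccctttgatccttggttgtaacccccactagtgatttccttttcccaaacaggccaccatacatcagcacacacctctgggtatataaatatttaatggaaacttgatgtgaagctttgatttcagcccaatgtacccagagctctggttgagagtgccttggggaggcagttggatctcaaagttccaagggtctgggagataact
Hjurp, chr1:88277580-88277829, minus strand: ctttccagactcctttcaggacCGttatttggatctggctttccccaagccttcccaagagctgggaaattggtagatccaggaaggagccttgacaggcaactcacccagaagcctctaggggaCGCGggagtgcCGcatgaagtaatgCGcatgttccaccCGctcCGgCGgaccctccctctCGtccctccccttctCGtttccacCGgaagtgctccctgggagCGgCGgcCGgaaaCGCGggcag

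The 3 promoters had little in common in base composition. The Hjurp window held 16 CpG and 60.8% G or C, the Ugt1a1 window 2 CpG and 44.8%, and the Mroh2a window no CpG and 47.2%. The median over 32851 RefSeq promoter windows of the same 250 bases was 6 CpG and 52.4% G or C. The Mroh2a window contained the HindIII letters AAGCTT once, starting at base 88226924, which is the edge of its captured fragment, so 95 of the 250 bases lay inside the fragment. AAGCTT, which reads the same on both strands, was present in 6.22% of all windows. TATAAA on either strand was found in the Mroh2a window and not in the letters of the other 2, against 12.4% of all windows. Of the 15 promoters that served as bait, 3 were matched in the sequence table.

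The listed contacts between the 88 Mb stretch and the chromosome start were dense. Mappability and the assembly of these fragments were not analysed here, and whether the scores reflect nearness of loci this far apart was not tested. Contacts reached 406 of the 721 HindIII fragments between 3004106 and 4991669, or 56.3%, at distances of 83.2 to 85.3 Mb. Of the left fragments contacted by one of the 3 baits, 131 were contacted by 1 bait, 143 by 2 and 127 by all 3. By RefSeq annotation, 334 members lay on 138 fragments of Xkr4, which encodes a protein of the XK family of lipid scramblases. Another 133 lay on 62 fragments of Rp1, a microtubule-associated protein of photoreceptors. A further 339 lay on 173 fragments without an annotated gene.

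The pairing had a sharp edge at 88 Mb and a gradual one at the chromosome start. The stretch had 914 listed contacts between 3 and 5 Mb, 24 between 5 and 6 Mb, 11 between 6 and 7 Mb, 4 between 7 and 8 Mb, 12 between 10 and 50 Mb and none between 50 and 87 Mb. In the last 250 kb inside the limit of 5 Mb lay 37 contacts with a median highest score of 9.09, and in the first 250 kb outside it 15 contacts with a median highest score of 6.16. At the other edge, 12 captured promoters within 500 kb of the stretch, among them Ugt1a8, Ugt1a9, Usp40, Spp2 and Arl4c, had 188 listed contacts. None of these 188 reached the first 5 Mb of the chromosome, and 3 reached the stretch itself.

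Other gene groups of the 85 to 90 Mb window took no part. Among the Ugt1a promoters listed, Ugt1a8 had 2 contacts and Ugt1a9 had 1, with no member among them. The alkaline phosphatase promoters Akp3, Alpi and Alppl2 had 14, 12 and 10 listed contacts, and the promoters of the nicotinic receptor subunits Chrnd and Chrng had 6 and 3, none of them members. No promoter of the Sp100 and Sp110 family was listed in the window.

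Nearly all contacts of the 3 promoters went to the chromosome start. Members made up 84.6% of the 456 listed contacts of Hjurp, 85.1% of the 315 of Ugt1a1 and 84.7% of the 170 of Heatr7b1. Within 1 Mb they had 14, 14 and 15 listed contacts. The farthest of these near contacts lay at 86.7 kb for Ugt1a1 and 71.2 kb for Heatr7b1, against a median of 473.3 kb over 8303 promoters with at least 10 near contacts. Only 9 and 2 of those promoters reached less far. Hjurp reached 460.3 kb, and 47.4% of the promoters reached less far than that.

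At the chromosome start the share of far contacts differed between promoters. U6.149, a copy of the spliceosomal U6 RNA, had 15 members among its 16 listed contacts. Gm1992, a predicted gene whose fragment RefSeq places in Xkr4, had 15 of 19, Rp1 14 of 17, and U7.104, a copy of the U7 RNA of histone message processing, 12 of 16. Xkr4 had 14 of 24, U6.629 12 of 22, U6.1 14 of 30 and U7.44 3 of 6. Toward the 5 Mb limit, Tcea1, a transcription elongation factor, had 8 of 23, Sox17, the endoderm regulator, 4 of 15, Gm16041 3 of 3 and Mrpl15, a mitochondrial ribosomal protein, 2 of 12. The Rgs20 promoter at 5064144, just outside the limit, had 12 listed contacts, 1 of them with the stretch.

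The size of the pairing set it apart in the table. Members were 20.9% of the 4377 listed contacts over 10 Mb within a chromosome, and their pair of 5 Mb windows ranked first of 424 such pairs. The next pair, on chromosome 4 between windows starting at 135 and 145 Mb, had 548. The 3180 contacts of chromosome 4 over 5 Mb were almost confined to 3 columns: 1755 reached 5 in ESC of DNMT_KO, and in EpiLC 2222 did in DNMT_WT and 1933 in DNMT_KO, while the other columns had 205 or fewer. The chromosome 1 members reached 5 in 191 to 527 cases in each of the 8 columns.

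Member scores gathered in bands. Of all member scores, 37.6% were exactly 0, against 3.47% over all contacts within a chromosome, and 2.06% lay between 3 and 6, against 43.4%. For the Hjurp bait, 410 scores lay between 1 and 2, 2 between 3 and 4, 234 lay between 7 and 8, 10 between 10 and 11, 115 between 13 and 14, 2 between 16 and 17, and 51 between 19 and 20. The Ugt1a1 bait had the same alternation, with 211 scores between 8 and 9, 3 between 12 and 13 and 55 between 15 and 16. The read counts behind the bands were not analysed here. Since few scores lie between 3 and 6, the threshold of 5 falls in a gap.

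**Figure D1:**
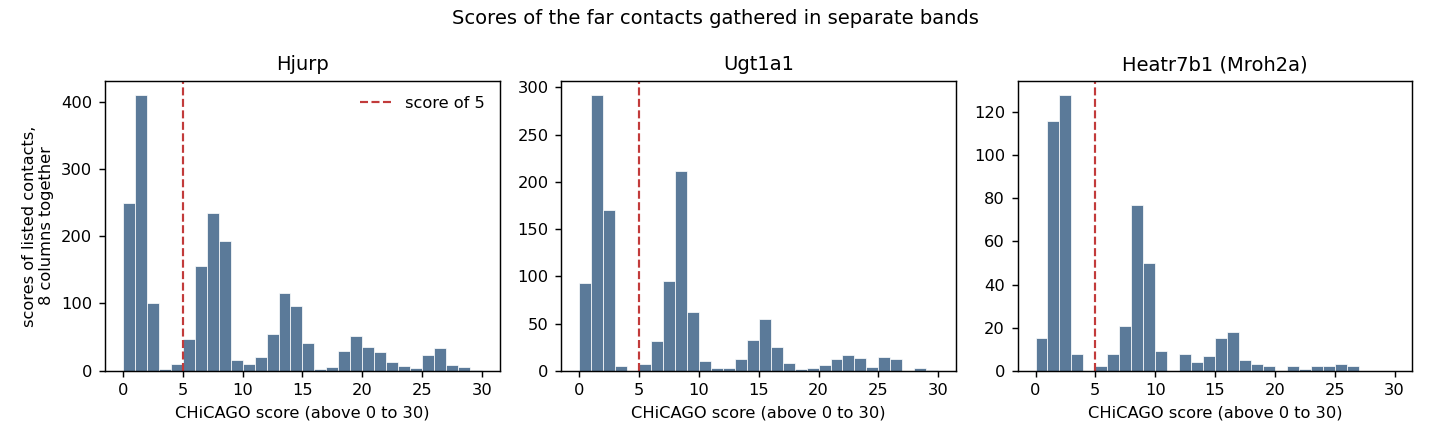
Number of scores above 0 and up to 30 (y axis) in bins of 1 score unit (x axis) for the contacts of the Hjurp, Ugt1a1 and Heatr7b1 promoters with the chromosome start, all 8 columns together; the dashed line marks a score of 5. Above the line, the Hjurp scores are most frequent at 7 to 8, with 234, and again frequent at 13 to 14, with 115, with 10 scores in the bin from 10 to 11.

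Single contacts were seldom shared by all columns. Of the members, 292 (31.9%) reached 5 in 1 column only and 8 (0.875%) in all 8, against 43.9% and 6.75% over all contacts within a chromosome. Where both ends were captured, the scores from either end were alike. For 17 pairs listed from both ends, 106 of 111 pairs of scores lay on the same side of 5. The Pearson r of the asinh scores across these pairs was 0.98. Both scores of a pair come from the same libraries, so this does not show that a separate measurement would repeat them.

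Before the stage and genotype comparisons, 3 columns stood apart from the others in the surroundings of the pairing. Within the stretch 41 contacts were listed. Of these, 37 reached 5 in DNMT_WT ESC, 33 in TET_KO ESC and 37 in TET_KO EpiLC, against 12 to 19 in the other 5 columns. The mean score of the 41 contacts was 12.7, 9.60 and 9.37 in those 3 columns and 3.68 to 5.48 in the others. In the same 3 columns the Hjurp fragment had no score in any of the 15 rows where it was the far end, and in DNMT_WT ESC the Heatr7b1 fragment had none in its 14 rows. The 3 promoters also had 51 listed contacts with other chromosomes, of which 29, 30 and 24 reached 5 in DNMT_WT ESC, TET_KO ESC and TET_KO EpiLC, against 1 to 17 in the others. The part of these differences between columns in the comparisons that follow was not tested. For all members together, stage results are also given without each line. The counts by promoter and the Hjurp to Ugt1a1 ratio are not.

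**Figure D2:**
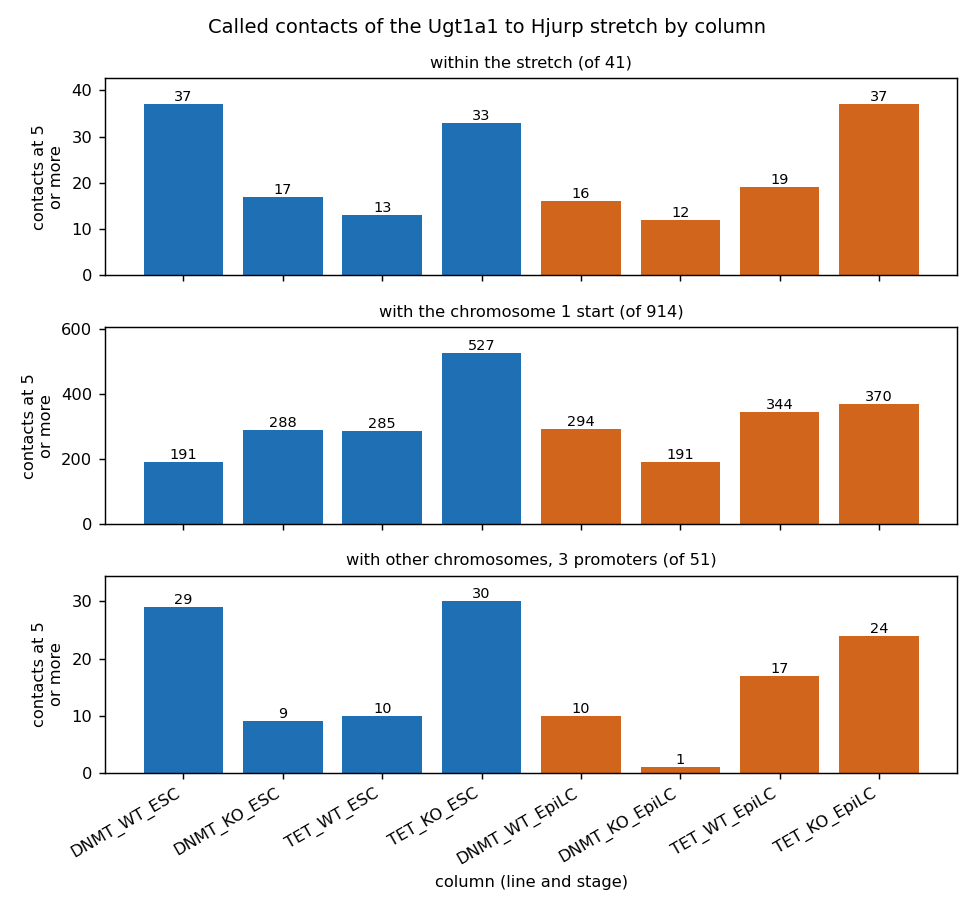
Number of contacts at a score of 5 or more (y axis, bars from 0, the value printed on each) in each of the 8 columns (x axis; blue ESC, orange EpiLC), for 41 contacts within the stretch, the 914 contacts with the chromosome start, and 51 contacts of the 3 promoters with other chromosomes. DNMT_WT ESC is among the highest in the top and bottom panels, with 37 and 29, and among the lowest in the middle one, with 191.

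The pairing was present in all 4 lines at both stages. Members at 5 numbered 191 in DNMT_WT ESC, 288 in DNMT_KO ESC, 285 in TET_WT ESC and 527 in TET_KO ESC. The EpiLC counts, in that order, were 294, 191, 344 and 370. As shares of the 914 these are 20.9%, 31.5%, 31.2% and 57.7% in ESC, and 32.2%, 20.9%, 37.6% and 40.5% in EpiLC. Shares taken likewise over all contacts within a chromosome were 33.8%, 31.9%, 33.2% and 36.1% for ESC, then 33.7%, 34.4%, 36% and 38.9% for EpiLC. The TET_KO ESC column was the highest, and the DNMT_WT ESC and DNMT_KO EpiLC columns were the lowest. Mean member scores in the ESC columns were 3.11, 4.67, 4.71 and 8.57, and in the EpiLC columns 3.97, 3.07, 5.30 and 5.48.

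A line with many members at 5 also listed many of them, so TET_KO was set beside each other line over the members that reached 5 in a line other than these, an alternative chosen after the data were seen. In ESC, TET_KO then reached 5 in 58.2% of 569 contacts against 23.2% in DNMT_WT, in 59.0% of 588 against 35.9% in DNMT_KO, and in 58.2% of 546 against 35.9% in TET_WT. In EpiLC the shares were 46.8% of 560 against 40.2% in DNMT_WT, and 47.0% of 568 against 28.0% in DNMT_KO. Against TET_WT in EpiLC the order turned, with 45.5% of 536 in TET_KO and 47.0% in TET_WT.

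Scores correlated negatively with distance from the start of the chromosome in all 8 columns, least in TET_KO. Between 3 and 3.5 Mb (331 members) 28.8%, 49.8%, 45.6% and 62.7% of the scored contacts reached 5 in ESC of DNMT_WT, DNMT_KO, TET_WT and TET_KO, and 44.6%, 31.0%, 54.5% and 42.4% in EpiLC. Between 4.5 and 5 Mb (111 members), which hold the Mrpl15 and Tcea1 promoters, ESC shares were 19.5%, 7.61%, 9.89% and 67.6% and EpiLC shares 10.2%, 6.06%, 7.22% and 41.7%. The share in TET_KO ESC was thus not lower there than between 3 and 3.5 Mb. The mean score there was 7.43 and 3.94 in TET_KO ESC and EpiLC, and 0.603 to 1.89 in the other columns. Of the 111 members, 71 reached 5 in TET_KO ESC. Members are listed only if they reach 5 in some column. The shares, means and correlations over all members therefore use contacts listed partly through the columns compared. On the matched contacts of this bin, 20 to 33 for each comparison, TET_KO reached 5 in 40% to 55.6% in ESC and 23.3% to 50% in EpiLC, and the line beside it in 7.41% to 10% and 3.03% to 15%. These shares rest on few contacts. Both TET_KO columns are among the 3 that stood apart. The Spearman correlation of score with position, over 821 to 887 contacts that share baits, was -0.17 in TET_KO ESC and -0.07 in TET_KO EpiLC, and ran from -0.41 to -0.20 in the other columns.

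**Figure D3:**
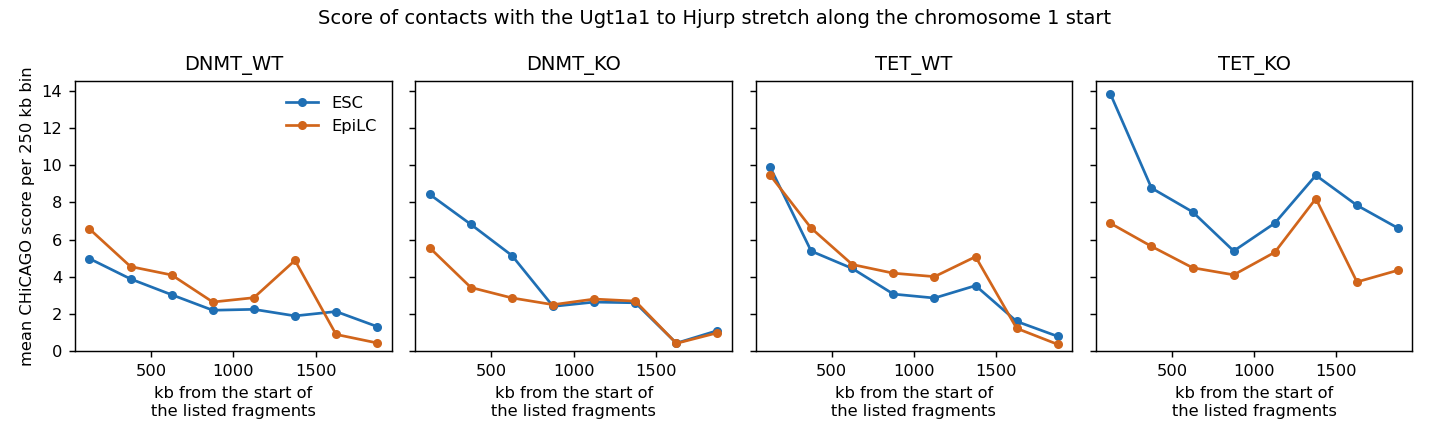
Mean CHiCAGO score of the members in bins of 250 kb (y axis) against distance in kb from the start of the listed fragments (x axis), 1 panel per line, blue for ESC and orange for EpiLC; each point is 1 column's mean over the contacts of a bin, with no error since a group has 1 column. The last points lie below 2 in DNMT_WT, DNMT_KO and TET_WT and above 3 in TET_KO.

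The stage difference in the number of members at 5 was smaller than the spread between the lines. It was 322.75 ± 143 (SD, n = 4 lines) in ESC and 299.75 ± 79.1 in EpiLC, a difference of -23.0 (p = 0.914, two-sided exact permutation test over 70 splits of the 8 columns). Paired by line, an alternative added after the data were seen, the exact p over 16 sign assignments was 0.875, and the smallest p that 4 lines allow is 0.125. The wild-type lines had more in EpiLC, by 103 in DNMT_WT and 59 in TET_WT, and the knock-out lines had fewer, with differences of -97 in DNMT_KO and -157 in TET_KO. The mean asinh score over the 600 members with a score in every column was 1.63 ± 0.50 in ESC and 1.48 ± 0.27 in EpiLC (n = 4 lines, exact permutation p = 0.714).

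The stage differences of the 3 promoters of the stretch had different signs, and none passed its test. The Hjurp promoter reached 5 in 99, 87, 114 and 238 contacts in ESC of DNMT_WT, DNMT_KO, TET_WT and TET_KO, and in 154, 110, 197 and 253 in EpiLC. Its count was higher in EpiLC in 4 of 4 lines, by 55, 23, 83 and 15, but the groups overlapped, with 134.5 ± 69.9 in ESC and 178.5 ± 61.1 in EpiLC (n = 4 lines, exact permutation p = 0.343, 0.457 after Benjamini-Hochberg adjustment over 4 bait sets). Paired by line the exact p was 0.125, the smallest possible, and 0.5 after the same adjustment. The Ugt1a1 promoter reached 5 in 42, 110, 104 and 165 contacts in ESC and in 75, 36, 84 and 37 in EpiLC. It was lower in EpiLC in 3 of 4 lines and higher in DNMT_WT (exact permutation p = 0.143, adjusted 0.4). Heatr7b1 reached 5 in 25, 54, 23 and 60 contacts in ESC and in 22, 9, 25 and 27 in EpiLC, with differences of -45 in DNMT_KO, -33 in TET_KO, -3 in DNMT_WT and 2 in TET_WT (exact permutation p = 0.2, adjusted 0.4). The 12 promoters of the chromosome start together averaged 42.5 contacts at 5 in both stages (exact permutation p = 1).

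Set against each other, Hjurp had 2.36, 0.791, 1.096 and 1.44 contacts at 5 for each one of Ugt1a1 in ESC, and 2.05, 3.06, 2.35 and 6.84 in EpiLC. The log2 ratio averaged 0.39 in ESC and 1.66 in EpiLC and was the larger in EpiLC for 3 of 4 lines (two-sided exact permutation p = 0.0857). This ratio was not a planned comparison. It joins the promoters whose mean differences had opposite signs, and its p is unadjusted, so it is a description. The 3 columns that stood apart lie in the line with the opposite sign, DNMT_WT, and in the line with the largest difference, TET_KO. Paired by line, the exact p of this ratio was 0.25.

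**Figure D4:**
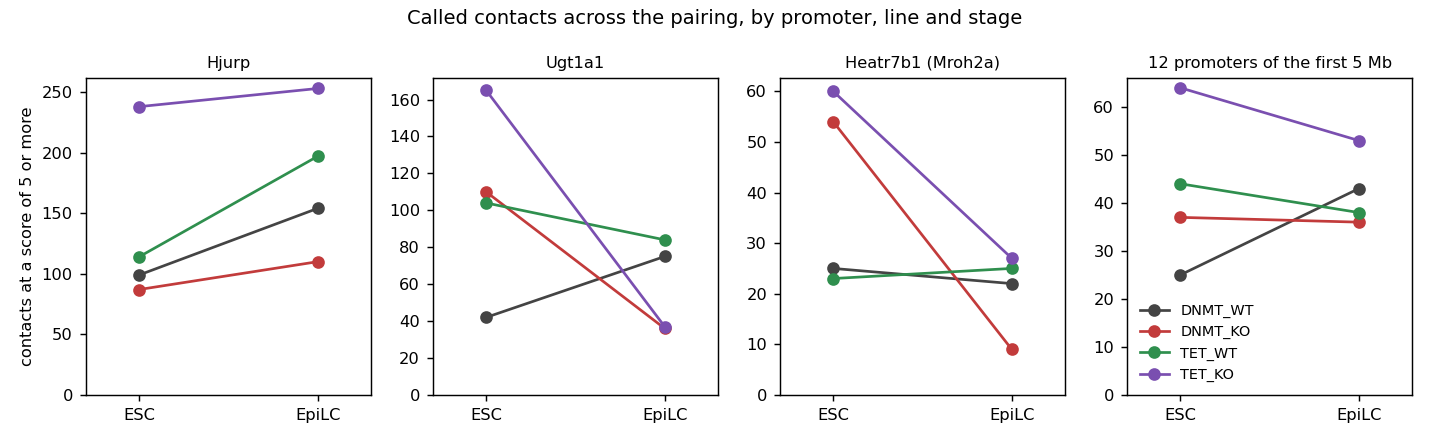
Number of contacts at a score of 5 or more (y axis, from 0, a scale of its own in each panel) in ESC and EpiLC (x axis), 1 line per cell line, for the 3 promoters of the 88 Mb stretch and for the 12 promoters of the chromosome start. The Hjurp count is higher in EpiLC in 4 of 4 lines, and the Ugt1a1 count is lower in 3 of 4.

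Contact by contact, 600 members had a score in every column and could be tested. The test was limma on quantile-normalised asinh scores with cell line as a block, adjusted by Benjamini-Hochberg over 244865 contacts within a chromosome. Among the 600, 14 were higher and 15 lower in EpiLC, against 0.207% higher and 0.108% lower over all contacts tested. Together the called members were 4.83% of those tested. An unadjusted limma p under 0.05 was found for 171 of the 600 members and for 40673 of the 244865 contacts. The median difference of the 600 was -0.23 on the asinh scale, against -0.0049 over all contacts. A contact is listed only if it reached 5 in some column, so one below 5 throughout a stage was listed through the other stage. The fit does not correct for this, for the members or for all contacts.

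These calls rest on a spread borrowed from all contacts. The SD of the stage difference between the 4 lines had a median of 1.57 over the members and 0.479 over all contacts, and the median standard error of the fit was 0.53 over the members. Fitted over the 743 contacts above 10 Mb alone, the same limma test called no member, with 53 at an unadjusted p under 0.05. Of these 743 contacts 600 were members, so that fit set members mostly beside each other. The individual contacts that follow are therefore given with the scores of each column.

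The contacts that were higher in EpiLC came mostly from Hjurp, and those that were lower mostly from Ugt1a1. Of 291 tested contacts of Hjurp, 9 rose and 4 fell, of 181 of Ugt1a1 none rose and 8 fell, and of 65 of Heatr7b1 none rose and 2 fell. The promoters of the chromosome start had 5 that rose and 1 that fell among 63. The median difference was 0.089 for Hjurp, -0.85 for Ugt1a1 and -0.60 for Heatr7b1.

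The Hjurp promoter and a fragment in Xkr4 (chr1:3608890-3609307) scored 0 in the 4 ESC columns. The EpiLC scores, in the order DNMT_WT, DNMT_KO, TET_WT, TET_KO, were 19.9, 13.1, 14.1 and 19.6 (difference 3.49 ± 0.30 SE on the asinh scale, limma adjusted p = 0.000184). The groups did not overlap. A second fragment in Xkr4 (chr1:3478843-3480706) also scored 0 with Hjurp in ESC, and 19.4, 0.492, 12.8 and 13.7 in EpiLC (2.66 ± 0.51, limma adjusted p = 0.037). In that contact the DNMT_KO EpiLC column stayed under the calling threshold.

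Hjurp and an intergenic fragment (chr1:4010690-4013130) scored 0, 1.99, 0 and 1.32 in ESC and 7.09, 6.80, 6.53 and 19.6 in EpiLC (2.22 ± 0.33, limma adjusted p = 0.0139), without overlap. Hjurp was also higher with chr1:3682171-3683060 and with chr1:3546203-3547418 in Xkr4, by 2.13 each, and in both the groups overlapped. The Gm1992 promoter was higher with the fragment next to Hjurp (chr1:88278578-88280173), where it scored 0.682, 0, 12.1 and 0.380 in ESC and 17.6, 18.2, 11.4 and 18.5 in EpiLC (2.41 ± 0.39, limma adjusted p = 0.0205). It was also higher with a fragment in Hjurp and Mroh2a (chr1:88257753-88261254), by 1.83. Rp1 was higher with 2 fragments in Mroh2a (chr1:88239615-88243256 and chr1:88249990-88253144), by 1.76 and 1.68, and Hjurp with chr1:3601701-3602783 in Xkr4, by 1.77.

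The largest fall was that of Gm1992 with a fragment of the Ugt1a cluster (chr1:88219912-88220831). It scored 25.1, 13.0, 18.4 and 18.8 in ESC and 5.54, 0.175, 0 and 0.219 in EpiLC (-2.92 ± 0.29, limma adjusted p = 0.000641), without overlap. Gm1992 was thus higher in EpiLC with fragments beside or in Hjurp and lower with one in the Ugt1a cluster. Ugt1a1 and an intergenic fragment (chr1:4031504-4032409) scored 8.22, 8.37, 14.9 and 8.37 in ESC and 0, 0, 1.34 and 0 in EpiLC (-2.74 ± 0.34, limma adjusted p = 0.00497), again without overlap.

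The next falls were also those of Ugt1a1. With chr1:3384346-3385897 in Xkr4 it scored 15.5, 15.2, 8.20 and 26.0 in ESC and 1.098, 0, 7.74 and 0 in EpiLC (-2.50 ± 0.40), without overlap. The difference was -2.44 with chr1:3250346-3253357, -2.40 with chr1:3012424-3015795, -1.97 with chr1:3379715-3381257 and -1.93 with chr1:3075700-3076428, all without overlap. With chr1:3679329-3682170 (-2.60) and chr1:3444834-3448249 (-1.80) the groups overlapped, as they did for Heatr7b1 with chr1:3047695-3048415 (-1.95). Of the 29 called contacts, 11 had groups that did not overlap. The 29 were picked by this same stage difference, so the lack of overlap only describes them. Its share over all contacts was not counted. Leaving out a line, 3 of the 29 were called without DNMT_WT, 3 without DNMT_KO, 3 without TET_WT and none without TET_KO.

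**Figure D5:**
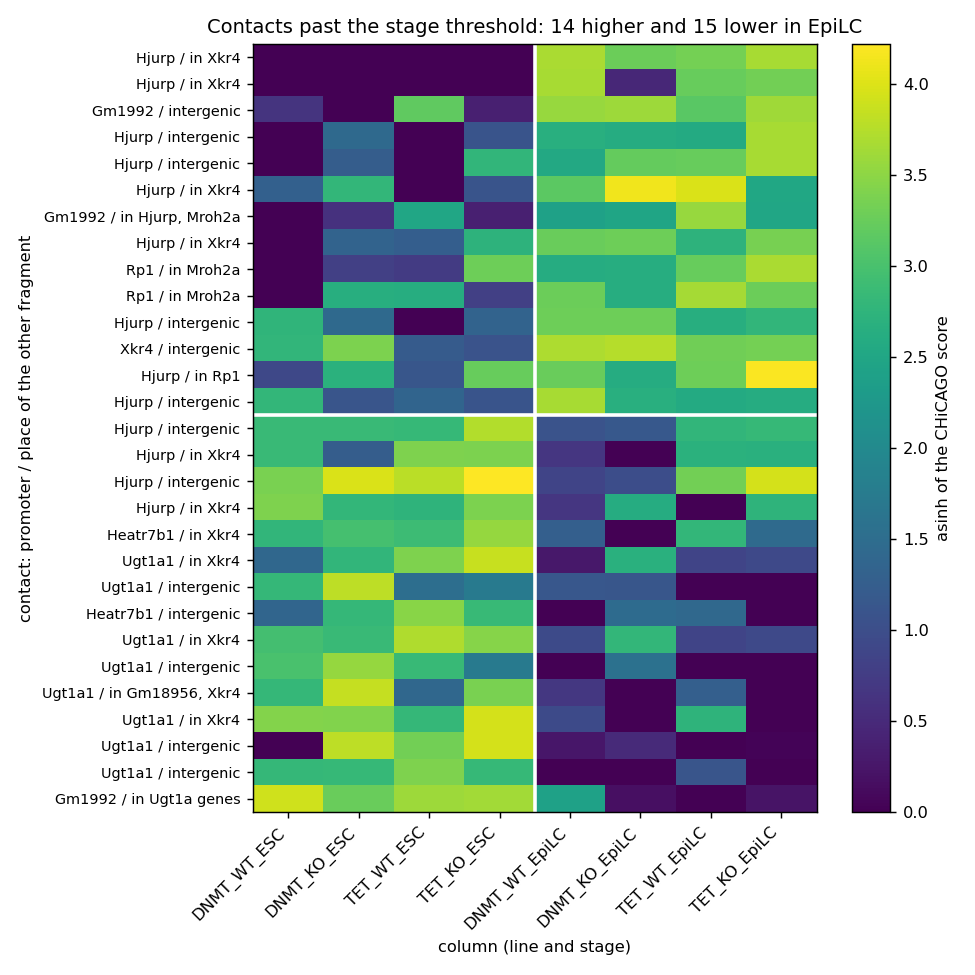
Scores, as asinh of the CHiCAGO score (colour scale), of the 29 members past the stage threshold (rows, named by promoter and by the RefSeq gene on the other fragment) in the 8 columns (x axis). The 14 rows above the white line are higher in EpiLC, 9 of them contacts of Hjurp, and the 15 below are lower, 8 of them contacts of Ugt1a1.

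The contacts that scored highest on average did not differ between the stages by this test. Ugt1a1 and U6.149 had the highest mean score, 27.8, with 25.1, 19.5, 30.6 and 26.7 in ESC and 29.7, 30.8, 36.2 and 23.8 in EpiLC (0.17 ± 0.18, limma adjusted p = 0.65). Captured from the U6.149 side, the same pair scored 18.6 to 34.9 with a mean of 26.1. Hjurp and the first listed fragment of the chromosome (chr1:3004106-3005820) scored 26.0, 8.09, 21.5 and 34.9 in ESC and 13.0, 19.9, 25.6 and 61.3 in EpiLC; 61.3 was the highest member score. The other contacts with the highest means, from 18.9 to 24.6, were those of Hjurp with chr1:3071759-3075699, chr1:3005821-3008316, U6.149, Rp1 and Gm1992 and of Ugt1a1 with Rp1 from either end. Each of these fell below 5 in at least 1 column. The 8 members at 5 in every column were 4 contacts of Hjurp, 2 of Ugt1a1, and those of U6.149 and U7.104 with Ugt1a1.

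Over the tested members together, TET_KO had more members with higher scores than TET_WT in ESC, and not in EpiLC. With 1 column per group these comparisons have no test, and members were counted where the asinh difference was at least 0.7 in size. This cut, also used for the DNMT lines, is about a doubling of a high score, but a smaller change passes it at low scores. Neither score had to reach 5, and how many counted members stayed below 5 in both columns was not determined. Of member scores 37.6% were exactly 0, against 3.47% over all contacts within a chromosome. The part of this in the shares that follow was not tested. In ESC, 300 of 600 members (50%) were higher in TET_KO than in TET_WT and 100 (16.7%) lower, against 11.1% and 10.6% over all contacts within a chromosome. The EpiLC columns had 165 (27.5%) above and 173 (28.8%) below, with 12.2% and 12.1% over all contacts. By bait the EpiLC directions differed: Hjurp had 100 above and 65 below among 291, Ugt1a1 29 and 72 among 181, and Heatr7b1 15 and 26 among 65. In ESC these counts were 160 and 37 for Hjurp, 87 and 33 for Ugt1a1, and 28 and 13 for Heatr7b1. At both stages 82 of the 600 were higher, against 2.94% of all contacts, and 35 lower, against 2.56%. Another 110 went opposite ways, and the share of all contacts that did so was not counted. By this cut, member scores spread more widely than those of other contacts in every comparison: between the wild-type lines in ESC, 233 members were higher in TET_WT and 150 lower, against 12.6% and 12.9%.

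The largest TET differences included the Sox17 promoter. Hjurp and Sox17 scored 0 in TET_WT and 22.9 in TET_KO in ESC, and 0 and 22.6 in EpiLC. In the DNMT lines the same contact scored 6.02 in wild type and 0.467 in knock-out in ESC, and 4.72 and 0 in EpiLC. Heatr7b1 and U6.629 scored 0 in TET_WT at both stages and 26.7 and 12.6 in TET_KO. Gm1992 and the intergenic chr1:88220832-88222715 scored 0.211 and 31.9 in ESC, and 0 and 18.5 in EpiLC. Hjurp with chr1:3578818-3581329 in Xkr4 and with chr1:4089563-4091688 completed the 5 largest. In the other direction, Ugt1a1 and chr1:3460563-3463374 in Xkr4 scored 15.8 in TET_WT and 0 in TET_KO in ESC, and 15.0 and 0 in EpiLC. Ugt1a1 with chr1:3048416-3049940 and chr1:3648492-3651089 was lower in the same way, as were Gm1992 with chr1:88248977-88249989 and Hjurp with chr1:3751682-3753687.

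Over the tested members together, the DNMT comparison turned with the stage. In ESC, 249 of 600 members (41.5%) were higher in DNMT_KO than in DNMT_WT and 148 (24.7%) lower, against 11.8% and 11.7% over all contacts. The EpiLC columns had 126 (21%) above and 195 (32.5%) below, with 10.1% and 10% over all contacts. By bait, the ESC counts above and below were 100 and 96 for Hjurp, 94 and 27 for Ugt1a1, and 33 and 10 for Heatr7b1. In EpiLC they were 64 and 103 for Hjurp, 30 and 58 for Ugt1a1, and 18 and 15 for Heatr7b1, which did not turn. Both stages agreed for 56 of the 600 higher, against 1.6% of all contacts, and 52 lower, against 1.4%. Another 102 went opposite ways, with the share over all contacts again not counted. The ESC part of this comparison rests on the DNMT_WT ESC column, one of the 3 that stood apart.

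Among the largest DNMT differences, Gm1992 and Ugt1a1 scored 0 in DNMT_WT and 43.0 in DNMT_KO in ESC, and 3.63 and 14.9 in EpiLC. In the TET lines that contact scored 21.2 and 26.7 in ESC and 14.4 and 9.63 in EpiLC, so the DNMT_WT columns were the low ones. Ugt1a1 with chr1:3255540-3257159 in Xkr4 scored 0 in DNMT_WT at both stages, and 9.04 and 22.3 in DNMT_KO. Heatr7b1 with chr1:3027393-3029516, U7.104 with chr1:88249990-88253144 and Hjurp with chr1:3547419-3548333 were higher in DNMT_KO at both stages too. The 5 largest differences the other way were all contacts of Hjurp, with chr1:3555284-3555928, chr1:3286320-3287188 and chr1:3211067-3214588 in Xkr4 and with chr1:3834179-3836697 and chr1:4518238-4520236. With the first of these Hjurp scored 8.68 in DNMT_WT and 0 in DNMT_KO in ESC, and 25.1 and 0 in EpiLC.

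The near contacts of the same promoters were compared as a reference. Of the 15 promoters, 10 had at least 3 listed contacts within 1 Mb with all scores, and limma over 15228 promoters called none of them higher or lower in EpiLC, against 4.16% higher and 6.17% lower over all promoters. Hjurp (-0.34 ± 0.16, adjusted p = 0.17) and U6.1 (-0.21 ± 0.09, adjusted p = 0.118) were the 2 with an unadjusted p under 0.05 in limma. Ugt1a1 differed by -0.25 ± 0.13 and Heatr7b1 by -0.19 ± 0.15. The near value of Hjurp differed, EpiLC minus ESC, by -1.24 (DNMT_WT) and -0.36 (DNMT_KO) in the DNMT lines and by 0.066 (TET_WT) and 0.19 (TET_KO) in the TET lines. Its mean difference was -0.033 without DNMT_WT, whose ESC column stood apart. Ugt1a1 averaged -0.050 without DNMT_WT, and Heatr7b1 0.097, with the sign turned.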

How the data were processed

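Promoter-capture Hi-C was made with HindIII from 16 mouse samples, per the labels' protocols. Per the submitters' processing notes, Trim Galore 0.6.5 and cutadapt 2.3 were used and the build was GRCm38; no source used here names an aligner. The authors deposited 1 CHiCAGO score per contact and group, in 8 columns with no counts, without saying in these sources how replicates were combined.

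The members and gene groups were chosen with earlier results of these data known. Scores were taken as asinh, quantile-normalised over contacts with all 8 scores and tested with limma 3.58.1 in R 4.3.3 (eBayes with trend, line as block, Benjamini-Hochberg at 0.05); the fit was checked on simulated data. The SE of a fitted difference and its p rest on the spread between 4 lines after limma drew it toward that of all contacts fitted. The 4 lines are not fully independent because each knock-out derives from its wild type. Counts per column were tested by exact permutation, and knock-outs were described without a test. The tests of counts by promoter and of the Hjurp to Ugt1a1 ratio were not among the planned ones. Members without a score in some column (314) stayed out of the fits and were kept in counts at 5. Promoters were named by number of members (10 per side, and the rest by count), and contacts by mean score (10), by stage difference (10 each way past the threshold) and by knock-out difference with the same sign at both stages (5 each way). Alternatives were no scaling, scaling by the mean, a log2 scale, missing scores as 0, wild-type lines only, far contacts only and leaving out each line; counting contacts at 5 in other lines and pairing columns by line were added after the data were seen.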

Additional observations from a re-analysis of the deposited data

Results flagged for a closer look

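Over all members together, the stage differences of the wild-type lines and of the knock-out lines had opposite signs. The number of members at a score of 5, EpiLC minus ESC, was 103 in DNMT_WT and 59 in TET_WT, and -97 in DNMT_KO and -157 in TET_KO. The mean member score differed by 0.86 in DNMT_WT and 0.59 in TET_WT, and by -1.60 in DNMT_KO and -3.09 in TET_KO. Split by bait, no set had these signs in all 4 lines. Hjurp was higher in EpiLC in the knock-out lines too, by 23 in DNMT_KO and 15 in TET_KO. In TET_WT the difference was -20 for Ugt1a1 and -6 for the promoters of the chromosome start, and in DNMT_WT it was -3 for Heatr7b1. The difference between wild-type and knock-out lines was not tested. The ESC columns of DNMT_WT and TET_KO and the EpiLC column of TET_KO are those in which 33 to 37 of the 41 contacts within the 88 Mb stretch reached 5, and their part in the result was not tested.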

How the results depend on the processing

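The 14 higher and 15 lower member contacts of the stage comparison depended on the processing. Both counts were 0 when limma was fitted on contacts over 10 Mb only, and 0 with the wild-type lines only, with 53 and 179 members at an unadjusted limma p under 0.05. Of the 743 contacts in the first fit 600 were members, so it set members mostly beside each other. The second fit rests on 2 lines and had little power to call any contact. How many of all contacts had such an unadjusted p was not counted for these fits or those without 1 line. Leaving out 1 line gave 0 to 2 higher and 0 to 5 lower; both counts were 0 without TET_KO, with 154 members at an unadjusted limma p under 0.05. The lower count was 9 without scaling, 9 with missing scores as 0 and 23 on a log2 scale. The stage difference in members at 5 changed sign without DNMT_KO (1.67) and without TET_KO (21.7), and ranged from -65 to 21.7 over the lines left out. The mean member score changed sign without TET_KO (0.00619), within -0.29 to 0.00619. With missing scores as 0, which counts all 914 members, TET_KO was higher than TET_WT for 472 and lower for 157 in ESC, and higher for 256 in EpiLC. Over contacts at 5 in a DNMT line, TET_KO minus TET_WT in EpiLC turned to -1.49 percentage points. Over all values compared, 46 stayed on the same side of their threshold and in the same direction or, for counts, within 1.5 times. These include the near-contact counts, which were 0 at every setting. Of the rest, 14 were weaker, 4 stronger and 4 reversed. Another 11, shares over contacts at 5 in other lines, moved without a change of sign. No paired analysis was possible because the columns carry no replicate number; the cell line was the block in limma, and pairing columns by line gave exact p-values of 0.875 for members at 5 and 0.625 for the mean score. The depth behind each column is unknown, and the deposited scores give no error of their own.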

Other observations

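The chromosome 1 start and the 88 Mb stretch also shared partners on other chromosomes. One fragment, chr10:113211613-113213951, was contacted by the 3 promoters of the stretch and by Gm1992, Rp1, U6.149, U7.104 and Xkr4 of the chromosome start, and by no other promoter in the table. Its highest scores were 120, 18.5, 18.7 and 102 in ESC of DNMT_WT, DNMT_KO, TET_WT and TET_KO, and 6.81, 6.23, 63.0 and 99.5 in EpiLC. Of 5 such partners of promoters of the chromosome start, 4 were also partners of the stretch. Hjurp, Ugt1a1 and Heatr7b1 together contacted 29 fragments on other chromosomes, 9 of them from all 3 promoters. These contacts included 17 with chromosome 17 between 23327515 and 23521871, and 20 with the first 5 Mb of chromosomes 2, 3 and 4. The fragment chr3:3059503-3061447 near the start of chromosome 3 scored up to 24.7 in DNMT_WT ESC and 24.6 in TET_KO ESC, and 0 in DNMT_KO EpiLC. These values are a description, with no test.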
